A study of Homo sapiens with 15 samples.

Results

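The response of A2058 cells, an established human melanoma line, to the compound labelled NP was measured on 6 of the 15 arrays of the series. The 6 arrays were chosen by their labels alone and comprised 3 from cells given 3 µM NP and 3 from cells given its vehicle DMSO, all collected at 8 h in 3 independent experiments. The other 9 arrays hold A2058 cells given water, metformin (5 mM) or phenformin (50 µM) for 8 h, and they entered the common fit and a comparison of responses. The array records spell the compound as NP and as neopetasin, whereas the study's text calls the compound given to this line at this dose and time petasin (PT) and lists neopetasin as another ingredient of the same plant extract. The labels' name NP is therefore used, and nothing measured here tells these compounds apart. A2058 is 1 line in culture, so other melanomas, other cells and whole tumors were not sampled.

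Petasin is a sesquiterpene ester of butterbur, and metformin and phenformin are biguanides that inhibit complex I of the mitochondrial respiratory chain. When mitochondria, amino acid supply or protein folding fail, kinases phosphorylate the translation factor eIF2, general translation slows and the transcription factor ATF4 is made in greater amount. ATF4 with C/EBP-family partners then induces genes for amino acid synthesis, amino acid import, tRNA charging and glutathione turnover, a program called the integrated stress response. The question posed here was which detected genes changed with NP, within that program and outside it.

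Between 25804 and 32056 of 58201 probes stood well above background on the 6 arrays, and no spot was saturated. Values are normalized log2 signals, the log2 of a probe's processed signal relative to the 75th percentile of its own array, so that 0 marks that percentile and a difference of 1 is a doubling. A change is the mean of the 3 differences NP minus DMSO of arrays with the same replicate number. Replicates 1 and 2 shared a slide and replicate 3 was on another, and replicate number accounted for 75% of the variation over the 6 arrays against 11.2% for treatment. Slide accounted for 65.4% of the variation, which is part of that 75% and cannot be told apart from the difference of replicate 3. Of the 6 arrays, only the NP array of replicate 2 lacked the scanner software's in-range mark. Its spike-in detection limit was the highest of the 6 (2.279), but which metric withheld the mark was not read. Of 14 melanocyte-lineage genes, 12 were above background on all 6 arrays, among them MITF, SOX10, PMEL and S100B, and their summed linear signal, relative to the 75th percentile, was 116 to 135 with DMSO and 108 to 132 with NP. Of markers of other cell types, 4 of 8 fibroblast genes (COL1A1, LUM, PDGFRB and FAP), 2 of 6 keratinocyte genes (KRT10 and KRT14) and 3 of 6 leukocyte genes (PTPRC, CD3D and CD79A) were above background on all 6 arrays, whereas COL1A2, COL3A1, KRT5, KRT1 and TP63 were so on none. Their summed linear signals were 6.12 to 6.44 with DMSO and 5.86 to 7.32 with NP for fibroblast genes, 130 to 142 and 133 to 140 for keratinocyte genes, and 5.61 to 9.26 and 5.81 to 10.5 for leukocyte genes. The keratinocyte sum came almost wholly from KRT10, at normalized log2 signals of 7.02 to 7.14, while KRT14 lay between −1.42 and −1.05. Most of the leukocyte sum came from CD79A, at 2.23 to 3.3. In a bulk array a fall in a transcript cannot be divided between fewer expressing cells and less RNA per cell.

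More genes passed the test as higher than as lower with NP. Of 20834 genes and unnamed transcripts tested, 100 rose (0.48%) and 15 fell (0.072%) as differentially expressed genes (DEGs), 115 in all (0.552%). A DEG had a change of at least 1.5-fold and an adjusted p of at most 0.05 in limma, blocked on replicate number. Of the DEGs, 69 that rose and 10 that fell have a gene symbol. Of the 115, 94 were above background on all 6 arrays, as were 19518 of the 20834 tested. The probes of 16 that rose passed the filter through the NP arrays only, and those of 5 that fell through the DMSO arrays only. For these the filter used the group where they were high, so their p-values are not free of that choice. All 115 moved in the same direction in 3 of 3 pairs, and the median change of the 100 was 0.76, 1.06 and 0.87 in pairs 1, 2 and 3. The NP arrays lay entirely above the DMSO arrays for 71 of the 100 (2.87% of all genes did so) and entirely below for 7 of the 15 (3.83% of all genes). The DEGs were chosen by their change on these same arrays. These counts and the agreement of the pairs follow in part from that choice and are not separate support. Over all genes the balance ran the other way, with a median of −0.02, 43.6% above 0, and 3058 higher against 4470 lower in 3 of 3 pairs. Genes past 1.5-fold numbered 640 up and 144 down in pair 1, 574 and 569 in pair 2, and 679 and 554 in pair 3. Among the DEGs the rise reached 2-fold in 38 genes whereas the fall did so in 1, TXNIP. The calls depend on how the spread was estimated: the 6 arrays fitted alone gave 0 DEGs (2147 genes with unadjusted p up to 0.05), and 69 that rose and 4 that fell with an intensity trend and robust prior, 67 of them among the 115. Leaving out replicate 2 also gave 0 DEGs (1509 with unadjusted p up to 0.05), and leaving out replicate 3 gave 2 that rose and 0 that fell. Leaving out replicate 1 gave 48 and 5, and testing without a filter on dim probes gave 0 (2811 unadjusted). All 115 kept their direction in each fit, but fits that leave out a replicate or change only the spread could not reverse it. Each of the 115 had the same sign in 3 of 3 pairs.

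**Figure D1:**
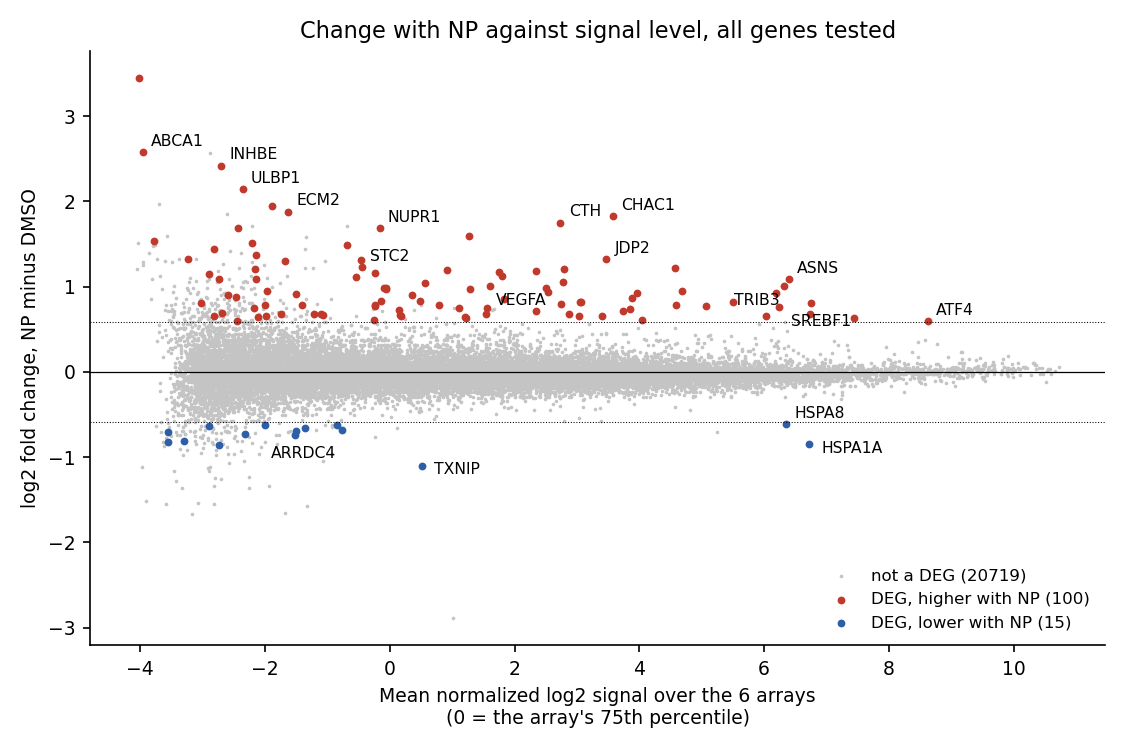
Log2 fold change (NP minus DMSO) against mean normalized log2 signal over the 6 arrays for the 20834 genes and transcripts tested; dotted lines mark 1.5-fold. Most DEGs lie above 0 (100 points, red) and span the signal range from ABCA1 at the dim end to ATF4 near the bright end, while 15 (blue) lie below.

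The genes of the integrated stress response were the main named group to rise. A list of 55 known ATF4 targets, chosen with earlier results of these data and the study's own genes in view, had 50 members tested, of which 24 rose as DEGs (against 0.48% of all genes), 0 fell and 26 did not pass. By symbol, 53 of the 55 were found on the array, and a member not found by symbol could not be counted. The median change of the 50 was 0.58 (0.48, 0.68 and 0.5 in the 3 pairs) against −0.02 for all genes, and 46 of the 50 were higher in 3 of 3 pairs, as 14.7% of all genes were. None of the 50 was a DEG in the fit of the 6 arrays alone or without replicate 2, where the median was 0.58 and 0.49. With an intensity trend and robust prior, chosen after seeing the data, the 6 arrays alone gave 16 DEGs on this list.

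The CARE, the short element that ATF4 and a C/EBP partner bind, was searched as TGATGNAA on either strand of RefSeq promoter windows (GRCh38.p14, 250 bases before to 50 after each gene's annotated start). It lay in 3 of the 20 windows found for the ATF4-list DEGs (ASNS, ATF3 and CHAC1) and in 4 of 34 for the other symbol-bearing genes that rose (ALPK2, FUT1, NHSL1-AS1 and S100P), against 3.67% of all 27305 windows and 1.83% of those of genes tested. Among the 23 windows of ATF4-list members that were not DEGs, 7 held it, as did 1 of 9 windows of genes that fell (JCAD). The stretches of 60 bases below are shown because their genes rose with NP and their signals are described next; capitals mark the element, which reads TGATGNAA on the strand shown for ASNS, ATF3 and FUT1 and as its reverse complement for CHAC1 and S100P. The match is of letters only, and binding was not measured.
ASNS, chr7:97872443-97872502, minus strand: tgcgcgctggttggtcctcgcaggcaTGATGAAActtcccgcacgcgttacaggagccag
ATF3, chr1:212565190-212565249, plus strand: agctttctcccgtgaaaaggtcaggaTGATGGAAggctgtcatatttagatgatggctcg
CHAC1, chr15:40953236-40953295, plus strand: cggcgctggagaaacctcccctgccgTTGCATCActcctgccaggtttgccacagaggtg
FUT1, chr19:48755444-48755503, minus strand: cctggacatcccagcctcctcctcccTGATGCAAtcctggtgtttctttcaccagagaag
S100P, chr4:6693729-6693788, plus strand: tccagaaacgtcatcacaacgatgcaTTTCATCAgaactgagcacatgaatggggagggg

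Among transcription factors, ATF4 itself, the regulator of the program, had normalized log2 signals of 8.4, 7.8 and 8.77 with DMSO and 8.77, 8.75 and 9.25 with NP. Each pair rose but the groups overlapped, since the DMSO array of replicate 3 lay above the NP array of replicate 2. The change was 0.6 ± 0.1 (limma adjusted p = 0.0389), and the pair differences were 0.37, 0.95 and 0.48. Here and below, ± gives the SE of the common limma fit over all groups, not the spread of the 3 pairs. DDIT3, which encodes the proapoptotic factor CHOP, went from 0.12, −0.16 and 0.15 to 0.75, 0.93 and 1.56, with no overlap (change 1.04 ± 0.13, adjusted p = 0.0124). ATF3, a stress-induced repressor, went from 1.47, 1.13 and 0.89 to 2.24, 2.37 and 2.37 (change 1.17 ± 0.14, adjusted p = 0.00878), although 2 dimmer ATF3 probes changed by −0.1 and 0.48. NUPR1, a stress-induced chromatin protein, gave close agreement between pairs, from −1.45, −1.12 and −0.47 to 0.12, 0.62 and 1.3 (change 1.69 ± 0.12, adjusted p = 0.00224). JDP2, a partner of the AP-1 and ATF proteins, changed by 1.32 and CEBPG, a C/EBP family member, by 0.72, both DEGs. PPP1R15A, the regulatory subunit of an eIF2 phosphatase, had a change of 0.01 and ATF5, a relative of ATF4, of −0.25, and neither passed the test. Among 16 eIF2 kinases and phosphatase regulators 0 were DEGs, and the median change was 0.02.

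The enzymes that rose include those of sulfur amino acid, serine and asparagine metabolism. CHAC1, which breaks down glutathione, had signals of 2.93, 1.64 and 3.4 with DMSO and 4.26, 4.26 and 4.96 with NP, so that every NP array was above every DMSO array (change 1.83 ± 0.21, adjusted p = 0.00804). CTH, the transsulfuration enzyme that makes cysteine, went from 1.64, 1.22 and 2.71 to 2.94, 3.38 and 4.5, again with no overlap (change 1.75 ± 0.14, adjusted p = 0.00226). CBS, the enzyme before CTH in that pathway, changed by 0.68 and SLC7A11, which imports cystine in exchange for glutamate, by 0.79, both DEGs. Of 17 transsulfuration and glutathione genes tested, 4 rose and 0 fell, and the 4 are those named. The median of the list without ATF4-list members was −0.04. Of all genes tested 0.48% rose and 0.072% fell, the shares to set beside this and the later list counts. ASNS, asparagine synthetase, went from 5.41, 5.59 and 6.54 to 6.65, 6.94 and 7.24 (change 1.09 ± 0.12, adjusted p = 0.00763), with the groups just apart. In the serine and folate list 3 of 18 rose, namely PSPH (change 0.95) and PSAT1 (0.81) of serine synthesis and MTHFD2 (0.82) of mitochondrial folate metabolism. Of 37 aspartate, malate and TCA cycle enzymes 3 rose: the mitochondrial alanine aminotransferase GPT2 (1.06), the mitochondrial phosphoenolpyruvate carboxykinase PCK2 (0.97) and argininosuccinate synthase ASS1 (0.8). The other 34 enzymes of that list did not pass the test.

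Most genes of amino acid import and tRNA charging were not DEGs (0.48% of all genes rose). Of 26 amino acid transporters 2 were DEGs, SLC7A11 and the glycine transporter SLC6A9, which went from 1.58, 1.17 and 2.5 to 2.57, 2.9 and 3.32 (change 1.18 ± 0.16, adjusted p = 0.0167). In 3 of 3 pairs 11 of the 26 were higher and 7 lower, as 14.7% and 21.5% of all genes were. The median of the 26 was −0.02, and −0.1 without the 7 on the ATF4 list. Of 19 cytosolic aminoacyl-tRNA synthetases, which charge tRNAs, 1 was a DEG, GARS1 for glycine (change 0.61 ± 0.09, limma adjusted p = 0.0253). In 3 of 3 pairs 12 were higher, as 14.7% of all genes were, and the median was 0.25. Of the 19, 8 are on the ATF4 list, and without them the median was 0.01 with 0 DEGs. The 16 mitochondrial synthetases held no DEG and had a median of −0.03. SARS1 and TARS1 had changes of 0.56 and 0.37 at adjusted p = 0.00881 and 0.0479, under the 1.5-fold line. SESN2, which restrains mTORC1 when leucine is low, was the DEG among 15 mTORC1 brakes: it went from −0.65, −1.16 and −0.64 to 0.3, 0.16 and 0.57, with no overlap (change 1.16 ± 0.09, adjusted p = 0.00226). TRIB3, a pseudokinase that binds ATF4 and AKT, changed by 1.01 ± 0.1 (adjusted p = 0.00628).

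INHBE, an activin subunit, was above background on 1 of 3 DMSO arrays and 3 of 3 NP arrays, with signals of −3.84, −3.86 and −4.05 against −2.06, −1.46 and −0.98. Its groups were far apart (change 2.42 ± 0.3, adjusted p = 0.00958). The secreted stress signals STC2, a stanniocalcin, and GDF15, a hormone released under mitochondrial stress, changed by 1.23 ± 0.12 and 0.93 ± 0.1 (adjusted p = 0.00628 for each), so that 3 of 5 tested members of this list rose. Of the 8 listed, 7 were found on the array by symbol, and a member not found by symbol could not be counted. The median of the 5 was 0.93 and ran from 0.26 to 1.05 over 16 processing settings. The 3 that rose are also on the ATF4 list, and without them the median was 0.01 with 0 DEGs. TSC22D3, a glucocorticoid-induced leucine zipper protein, was a further ATF4-list DEG (0.94). ULBP1, a ligand of the activating receptor NKG2D of natural killer cells, went from −3.21, −4.21 and −2.87 to −1.85, −0.79 and −1.23 (change 2.14 ± 0.34, adjusted p = 0.0314), with 2 of 3 DMSO arrays above background. The pairs differed in size, at 1.36, 3.42 and 1.64. The other tested NKG2D ligands, MICA, MICB and ULBP2, were not DEGs and had changes of −0.27, −0.2 and −0.11, each lower in 3 of 3 pairs.

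Outside the stress response lists, 45 of the 69 symbol-bearing genes that rose were on none of the 9 lists of that program. The 45 go by list membership only and include ATF4 itself, GPT2, ASS1, SLC7A11-AS1 and VLDLR-AS1, so they are not a count of rises outside the program. Among the 45 was ABCA1, the exporter that passes cellular cholesterol to apolipoproteins. Its normalized log2 signals were −5.69, −5.71 and −4.35 with DMSO, where it was well above background on 0 of 3 arrays, and −3.49, −2.63 and −1.88 with NP, where it was above background on 3 of 3. Since the DMSO values are only bounded by background, the rise is given as at least 2.13-fold over the lowest signal called above background. The limma adjusted p of 0.00628 belongs to the fitted change of 2.58, which uses those DMSO values, and not to the bound. The probe passed the filter through the NP arrays only. MYLIP, an E3 ubiquitin ligase that removes lipoprotein receptors, went from 1.68, 1.74 and 2.53 to 2.43, 2.4 and 3.24, near-equal steps in the pairs although the DMSO array of replicate 3 exceeded NP arrays 1 and 2 (change 0.71 ± 0.1, adjusted p = 0.0172). ABCA1 and MYLIP are standard targets of the oxysterol receptors LXR, and they were the DEGs among 7 tested members of an LXR and cholesterol efflux list. The receptors themselves, NR1H3 and NR1H2, had changes of 0.13 and −0.18 and LPCAT3, another target, of 0.2; APOE was at −0.03, and none of these passed.

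SREBF1, which encodes the lipid-synthesis factor SREBP-1 and is itself an LXR target, went from 5.67, 5.62 and 6.28 to 6.51, 6.39 and 6.92, with the groups apart (change 0.76 ± 0.08, adjusted p = 0.00628). A second, dimmer SREBF1 probe changed by 0.05, so the rise rests on 1 probe. On the list of sterol and fatty acid synthesis genes SREBF1 was the DEG of 31 members, and the rest leaned the other way. The median of the 31 was −0.15, and 19 were lower in 3 of 3 pairs, as 21.5% of all genes were. Over 16 processing settings that median ran from −0.21 to −0.11. G0S2, an inhibitor of the fat-cell triglyceride lipase, rose with a change of 0.75 ± 0.12 (adjusted p = 0.033), from 1.66, 1.43 and 0.45 to 2.03, 2.54 and 1.23 with overlap between groups.

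VEGFA, the angiogenic growth factor, went from 1.23, 1.26 and 0.81 to 2.11, 2.33 and 1.89 (change 1.01 ± 0.07, adjusted p = 0.00224), and its second probe changed by 0.86. VEGFA was the DEG of 35 glycolysis and hypoxia genes, whose median was −0.05. FUT1, the fucosyltransferase of the H blood-group antigen, went from −1.2, −0.88 and −1.28 to −0.37, 0.29 and 0.65 without overlap (change 1.31 ± 0.18, adjusted p = 0.0172). RPS6KA2, a ribosomal S6 kinase, went from −2.68, −2.54 and −1.77 to −1.28, −0.69 and −1.11 (change 1.3 ± 0.19, adjusted p = 0.0211). S100P, a small calcium-binding protein, differed widely between experiments, at 1.51, 2.85 and 3.59 with DMSO and 2.38, 3.58 and 4.43 with NP. Its groups overlapped, yet the pair differences were 0.87, 0.73 and 0.84 (change 0.82 ± 0.09, adjusted p = 0.00628). The adaptor GRB10 (0.87), the transcription factors KLF4 (0.91) and HOXB9 (0.77), the collagen receptor DDR2 (0.64) and the cytokine IL1A (0.79) were DEGs too, IL1A with 2 of 3 DMSO arrays above background.

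ECM2, an extracellular matrix protein, went from −2.29, −3.18 and −2.22 to −1.09, −0.81 and −0.16 (change 1.88 ± 0.22, adjusted p = 0.00804). ANKFN1 went from −1.71, −2.33 and −0.24 to −0.37, −0.2 and 0.77 with overlap (change 1.49 ± 0.21, adjusted p = 0.0183). CCDC197 was above background on 0 of 3 DMSO arrays and 3 of 3 NP arrays and rose at least 1.69-fold by the bound used for ABCA1. Its limma adjusted p of 0.0167 belongs to the fitted change of 1.54, taken from DMSO values below background. MICU3, a regulator of the mitochondrial calcium uniporter, and RHOT1, a mitochondrial transport GTPase, were DEGs with changes of 0.9 and 0.79, but a second RHOT1 probe changed by 0.13. XBP1, a transcription factor of the unfolded protein response, changed by 0.65 ± 0.08 (adjusted p = 0.0121) and was the DEG of 31 endoplasmic reticulum chaperone and degradation genes. In that list HSPA5, the main chaperone of the compartment, had a change of −0.1 (adjusted p = 0.671), HERPUD1 had 0.59 (adjusted p = 0.0694), and the median was −0.07.

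Transcripts without a symbol or that code for no protein were among the DEGs too. Of 12844 protein-coding genes 60 rose (0.467%) and 7 fell (0.0545%), of 1600 other annotated genes 9 rose (0.562%) and 3 fell (0.188%), and of 6390 transcripts without a symbol 31 rose (0.485%) and 5 fell (0.0782%). The rates were not tested against each other. Symbols came from a match to RefSeq, so a coding or listed gene without a match would be counted among the transcripts without a symbol. The noncoding transcript lnc-EXOC2-9:1 was above background on 0 of 3 DMSO arrays and 3 of 3 NP arrays, and rose at least 2.76-fold by the same bound. Its limma adjusted p of 0.0204 belongs to the fitted change of 3.45, taken from DMSO values below background. Antisense partners did not all follow their genes. SLC7A11-AS1 (1.09) and SLC7A11 (0.79) rose together, as did VLDLR-AS1 (1.21) and VLDLR (0.66), a lipoprotein receptor gene on the ATF4 list. For NHSL1-AS1 (0.65) and ST7-AS1 (0.67), both DEGs, the sense genes NHSL1 and ST7 had changes of −0.05 and −0.29 that did not pass, and for CIRBP-AS1, which fell by 0.68, CIRBP was at 0.14. The pseudogene transcript FLJ43315 (1.11), the hairpin MIR92A1 (1.09, with 2 of 3 DMSO arrays above background) and the noncoding LINC00662 (0.83) and LINC01583 (0.81, with 2 of 3 DMSO arrays above background) and the small nucleolar RNA SNORD116-27 (0.65) were the other noncoding DEGs with a symbol that rose.

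Of the 15 genes that fell, TXNIP had the largest change (−1.1) and the other 14 lay between −0.86 and −0.61. TXNIP, an inhibitor of glucose uptake and thioredoxin, had signals of 1.38, 1.47 and 0.32 with DMSO and 0.66, 0.69 and −1.47 with NP. Replicate 3 lay low in both groups, so that the groups overlapped while each pair fell, by 0.72, 0.78 and 1.79 (change −1.1 ± 0.18, adjusted p = 0.033). ARRDC4, a related arrestin, went from −0.71, −0.82 and −1.95 to −1.33, −1.47 and −2.74 (change −0.69 ± 0.1, adjusted p = 0.0172). TXNIP and ARRDC4 are targets of the glucose-responsive factor MondoA and were the DEGs of 8 listed MondoA genes; ARRDC3 was at 0.27 and ARRDC2 at −0.02, and the list's median was −0.09.

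Heat shock genes of the cytosol were low as a set of small changes. Of 22 tested, 2 fell as DEGs (against 0.072% of all genes) and 22 had a change below 0 (43.6% of all genes were above it). In 3 of 3 pairs 18 were lower, as 21.5% of all genes were, and the median was −0.22 (−0.24, −0.11 and −0.29 in the 3 pairs). Over 16 processing settings the median ran from −0.29 to −0.18. HSPA1A, the inducible HSP70, went from 7.3, 7.39 and 6.75 to 6.6, 6.92 and 5.36, with overlap because replicate 3 lay low (change −0.85 ± 0.15, adjusted p = 0.0425). Its near-identical copy HSPA1B had a change of −0.71 (adjusted p = 0.0799), and probes may not tell the copies apart. HSPA8, the constitutive HSC70, went from 6.7, 6.63 and 6.61 to 6.23, 6.16 and 5.72, with no overlap (change −0.61 ± 0.09, adjusted p = 0.0226). Among the others HSPH1 was at −0.32, BAG3 at −0.27 and DNAJB1 at −0.19, with HSF1, the factor that drives these genes, at −0.02, and none of these passed.

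The remaining named falls were scattered. CTNND2, a neuronal catenin, went from −1.4, −0.98 and −1.05 to −1.94, −2.03 and −1.7 with no overlap (change −0.74 ± 0.1, adjusted p = 0.0172). JCAD, a cell junction protein, went from −0.85, −0.04 and −0.7 to −1.59, −0.56 and −1.3 (change −0.62 ± 0.07, adjusted p = 0.00877), but a second JCAD probe changed by 0.18. MIR210HG, the host transcript of the hypoxia-linked miR-210, went from −3.55, −3.15 and −2.76 to −4.63, −3.89 and −3.39, and was above background on 1 of 3 NP arrays (change −0.82 ± 0.12, adjusted p = 0.0213). LINC01962 (−0.71, above background on 1 of 3 NP arrays) and HUS1B (−0.66), a relative of a DNA-damage checkpoint clamp subunit, were the others. ID3, an inhibitor of basic helix-loop-helix factors, and BTG2, an antiproliferative gene, had changes of −0.54 and −0.47 at adjusted p = 0.00874 and 0.033 but not 1.5-fold, and were picked after their values were seen.

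**Figure D2:**
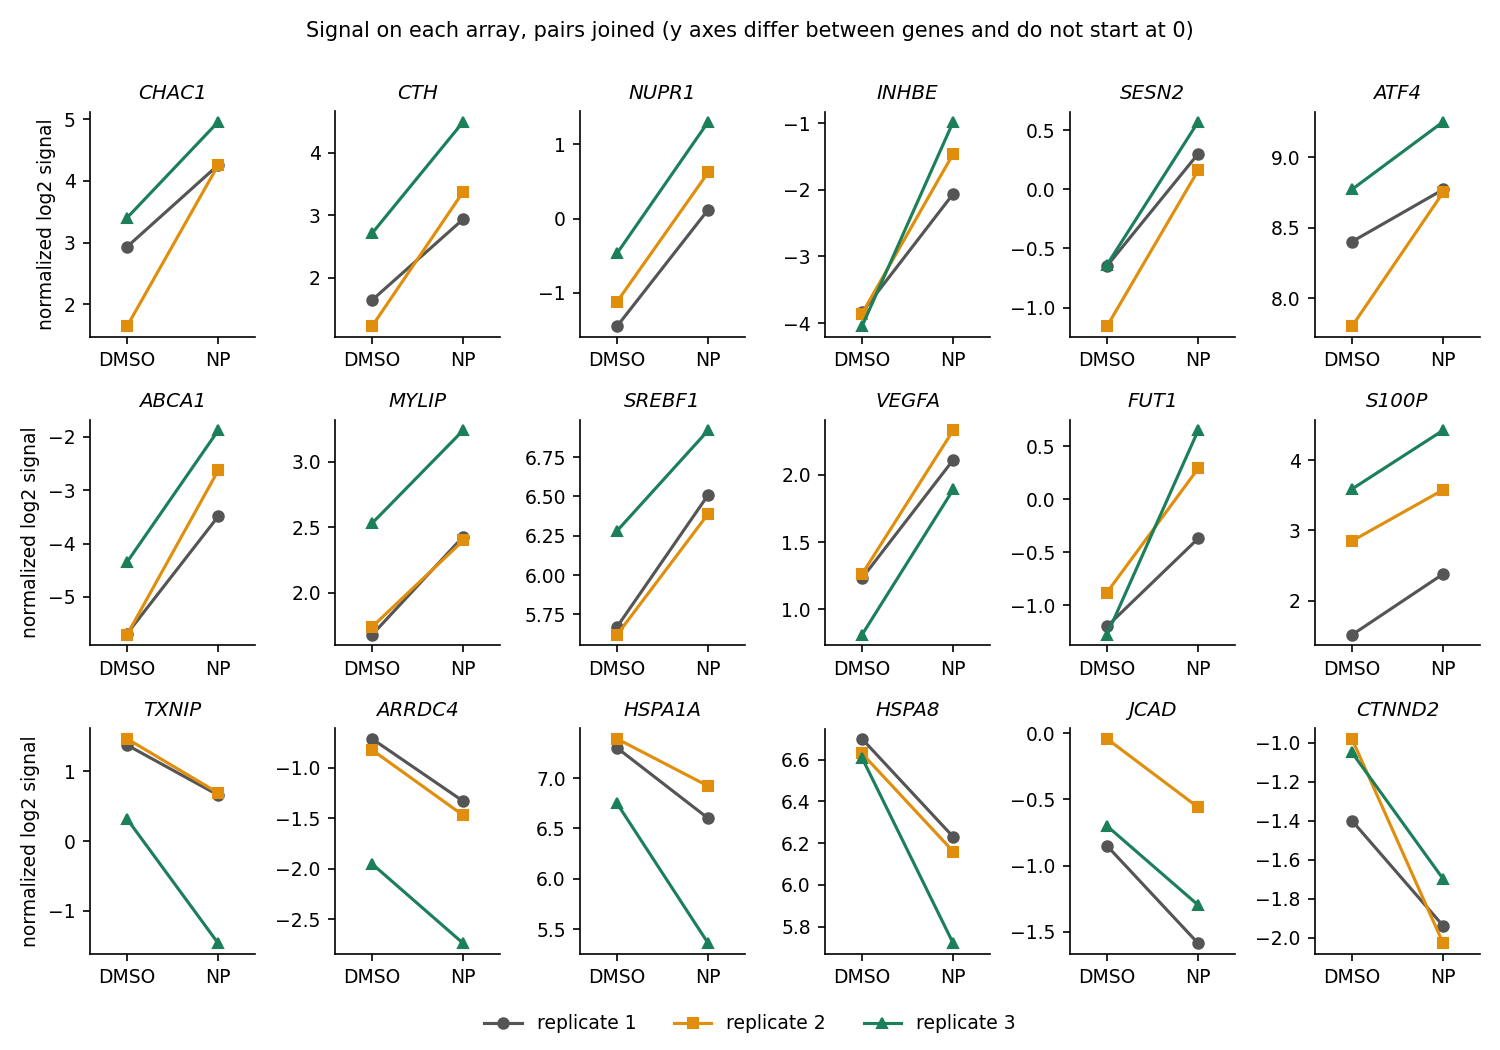
Normalized log2 signal of 18 DEGs on each of the 6 arrays, with DMSO and NP arrays of the same replicate number joined; the y axes differ between genes. Each of the 3 lines rises in the upper rows of panels and falls in the bottom row, while S100P, MYLIP, ATF4, TXNIP, ARRDC4, HSPA1A and JCAD overlap between groups because the experiments differ in level.

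Most of the 43 gene lists held no DEG. The 24 lists with none include complex I subunits (37 tested, median −0.02), complexes II to V (39, −0.02), mitochondrial chaperones and proteases (20, −0.02), cytosolic ribosomal proteins (48, 0.03), p53 targets (21, −0.03) and BCL2 family and death receptor genes (17, −0.03). NRF2 targets, the antioxidant genes, held 1 DEG of 23, SLC7A11, and their median was −0.01. The 33 mitosis genes tested held no DEG, but 28 of them were lower in 3 of 3 pairs, as 21.5% of all genes were. Their median was −0.14, which ran from −0.15 to −0.12 over 16 settings. The mitotic kinase AURKA had a change of −0.26 (adjusted p = 0.167) and the proliferation marker MKI67 one of −0.18 (adjusted p = 0.321). The 65 replication-dependent histone genes and the 33 genes of the G1/S transition and DNA replication had medians of −0.11 and −0.09 and no DEG. Among 17 noncoding hosts of small nucleolar RNAs, 14 were above 0 (43.6% of all genes were) and the median was 0.07, again with no DEG.

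**Figure D3:**
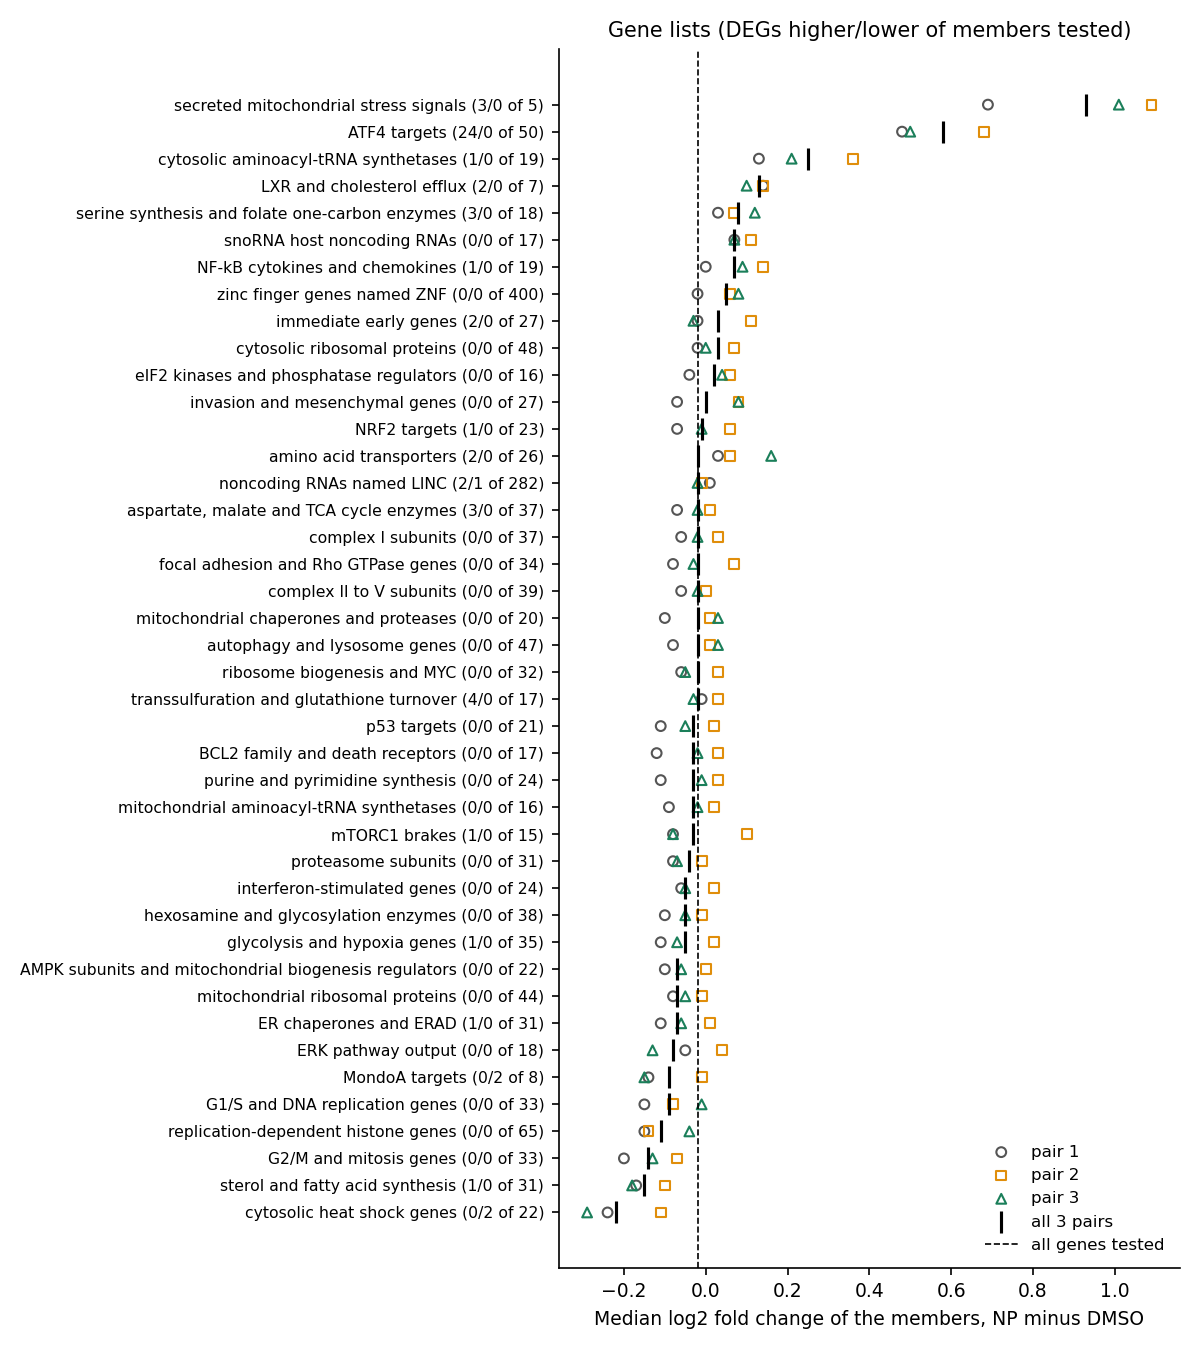
Median log2 fold change (NP minus DMSO) of the members of each gene list with 5 or more tested, in each pair (open symbols) and over the 3 pairs (black bars); counts give DEGs higher and lower of those tested, and the dashed line is the median of all genes. The ATF4 targets (0.58) and the secreted stress signals (0.93) lie far to the right of the other lists, 3 of the 5 secreted signals being ATF4 targets too, and the heat shock genes (−0.22) are lowest.

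Metformin and phenformin, each compared with water on other slides, gave the NP genes on arrays that share no sample with the NP contrast, although they entered the estimate of the spread. Of the 100 genes that rose with NP, 92 were above 0 with metformin and 92 with phenformin, and 88 with both, whereas 49.1% and 46.6% of all genes were above 0. The median change of the 100 was 0.9 with NP, 0.4 with metformin and 0.54 with phenformin; since the genes were chosen by their NP values, the medians do not compare the sizes of the responses. The 2 biguanide contrasts share their water arrays. Of the 15 that fell, 12 were below 0 with metformin and 13 with phenformin, at medians of −0.71, −0.25 and −0.27. For CHAC1 the changes were 1.83 with NP, 2.14 with metformin and 2.4 with phenformin, and for ASNS 1.09, 1.11 and 1.5. TXNIP was at −1.1, −1.61 and −1.44 and ARRDC4 at −0.69, −1.15 and −1.12.

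Values for the cholesterol genes differed more. ABCA1 had fitted changes of 2.58 with NP (measured from DMSO values below background), 0.24 with metformin and −0.11 with phenformin, MYLIP 0.71, −0.14 and −0.08, and SREBF1 0.76, −0.02 and 0.08. FUT1 was at 1.31, 0.2 and 0.12, S100P at 0.82, 0.11 and 0.2, MICU3 at 0.9, −0.33 and −0.07, and MIR210HG at −0.82, 0.05 and 0.44. Testing the difference itself, the NP change minus the mean biguanide change, called 0 of 20834 genes in limma (smallest adjusted p = 0.317). None of the genes named here therefore passed as differing from the biguanides. The unadjusted limma p was up to 0.05 for 2111 genes, among them 63 of the 100 and 14 of the 15. The 100 and the 15 were chosen by their NP change, which enters this difference. That choice alone can raise their shares, so no conclusion is drawn from them. The compounds had different vehicles, doses and slides, which cannot be told apart from the compounds in this contrast.

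**Figure D4:**
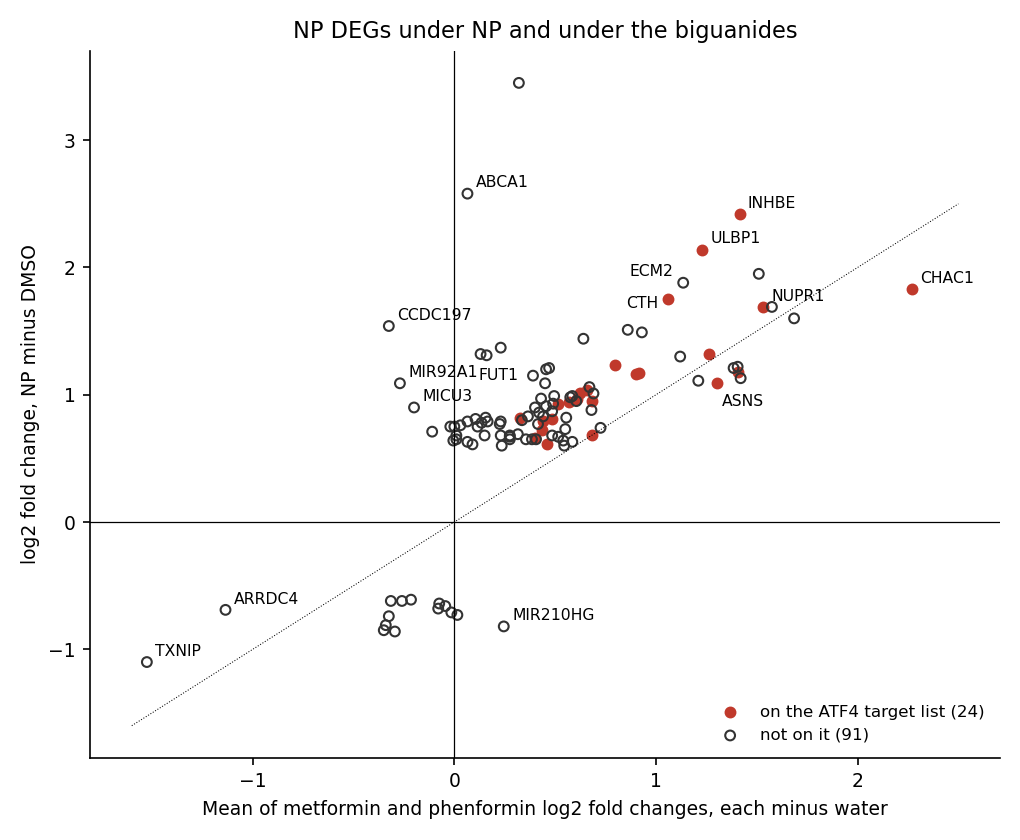
Log2 fold change with NP (minus DMSO) against the mean of the metformin and phenformin log2 fold changes (each minus water) for the 115 NP DEGs; the dotted line marks equal change. ATF4-list genes (filled) lie to the right of 0 on the horizontal axis. Most of them are above the line, whereas CHAC1, SLC6A9 and ASNS are below it and CBS is on it. ABCA1 and FUT1 sit near 0 on the horizontal axis, and TXNIP and ARRDC4 are low on both axes.

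Without any test, 74 genes were at least 1.5-fold higher in 3 of 3 pairs (0.355% of those tested) and 8 were at least 1.5-fold lower (0.0384%), of which 64 and 3 were DEGs. The 3 pairs correlated at r = 0.16, 0.17 and 0.19 across all genes, which are not independent replicates. For 16 DEGs a further probe was kept, 18 probes in all, and 14 of the 18 moved in the direction of the main probe, 8 of them by at least 1.5-fold. Those that did not were an ATF3 probe, the JCAD probe and 2 of SGCD (−0.08 and −1.1, against 0.75 for the main probe).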

How the data were processed

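RNA of 15 samples was labeled by the authors with 1 dye and hybridized to Agilent SurePrint G3 Human GE 8x60K arrays. The deposited scanner files hold spot intensity, background-subtracted and processed by Feature Extraction (version 10.7.3.1 per the file headers; the submitters' processing notes name 9.1). A deposited table of log2 values, which the authors normalized at the 75th percentile with low values set to 4, served as an alternative, and in it 47.8 to 50.8% of the values of each of the 6 arrays lie at that floor. Precision is limited by having 3 arrays a group. The labels give 3 independent experiments.

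Here the processed intensity was divided by the 75th percentile of each array and log2 transformed, control spots and outlier flags were left out, and a probe was kept if well above background on all 3 DMSO or all 3 NP arrays. The brightest kept probe stood for a gene. Of 58201 probes, 31104 took a symbol from RefSeq (GRCh38.p14) by accession, and the rest keep the files' names. limma 3.58.1 (R 4.3.3) was fitted to 15 arrays with 5 groups and the replicate number as a block, separately for the NP and DMSO arrays and for the others, with Benjamini-Hochberg adjustment over 20834 genes. Standard errors are those of the fit. The study's methods pair replicates. Arrays of the same number deviated together (r = 0.57, 0.54 and 0.8 between DMSO and NP). DMSO and NP arrays of replicates 1 and 2 that shared a slide but not a number also did so (r = 0.44 and 0.37). Across the slide sets, arrays of the same number did not (r from −0.24 to 0.15). A gene above background on 0 of 3 arrays of a group is given as a bound, the mean of the other group against, per array, the higher of its own signal and the lowest signal well above background. The procedure was tested on simulated data. Named genes were, among DEGs with a symbol, the 15 largest rises and up to 15 falls, the 10 largest rises outside the stress lists, up to 3 DEGs of each list or else its member with the smallest p, 5 set genes and DEGs detected in 1 group only; other genes were named after their values were seen. The list members and rules were chosen with earlier results of these data known. Single members of the sterol list other than SREBF1 are not reported here.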

Additional observations from a re-analysis of the deposited data

How the results depend on the processing

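The counts of genes that rose and fell (100 and 15) became 12 and 0 with no replicate block, 27 and 2 with a common replicate block over 5 groups, and 0 and 0 in the 6 arrays alone with the pairing kept. In the last fit, with an intensity trend and robust prior (chosen after seeing the data), they were 69 and 4. The paired test of the study's methods gave 102 and 21 unadjusted, 90 of them among the 115, and 0 and 0 after Benjamini-Hochberg adjustment. Testing every probe without a filter gave 0 and 0 over 47496 features. Leaving out a replicate gave 0 to 48 and 0 to 5. Background correction by normexp gave 71 and 3. Quantile normalization (74 and 12), the authors' table (97 and 16), probes above background on all 15 arrays (87 and 10), the mean of probes (97 and 14) and a trend and robust prior (109 and 14) stayed within 1.5 times. The causes of these shifts were not tested. Of the 115 DEGs, each kept its direction in these settings wherever it was tested, except 1 with the mean of probes. Settings that change only the spread or leave out a replicate could not reverse it, since each had the same sign in 3 of 3 pairs. The count past 1.5-fold in 3 of 3 pairs (74 and 8) became 36 and 1 with normexp; the fall became 5 in the authors' table and 2 with probes above background on all 15 arrays. The contrast with the biguanides called 0 in each of the 7 alternatives run (smallest adjusted p from 0.0745 to 1). For 74 named genes, 692 of 1099 values kept direction and side of the threshold, 407 fell below it and 0 reversed. In settings that change only the spread, a direction could not reverse. Near background, the fold of a gene is a bound only.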

Other observations

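Several of the largest changes that did not pass the test came from 1 array. CDH24, a cadherin, had normalized log2 signals of −0.72, −0.69 and 8.77 with DMSO and −0.29, −0.48 and −0.53 with NP, which gives the largest fall of the table (−2.89 ± 1.52 SE, adjusted p = 0.459). RUFY3 had −3.77, −3.28 and −5.45 with DMSO and −2.91, −2.82 and 0.94 with NP (change 2.57 ± 0.93, adjusted p = 0.285).

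IRX4, a homeobox gene, was above background on 0 of 3 DMSO arrays and 3 of 3 NP arrays, with signals of −4.64, −4.14 and −5.58 against −3.6, −3.13 and −3.09, and did not pass the test (adjusted p = 0.0874). In all, 14 genes were above background on 3 of 3 NP and 0 of 3 DMSO arrays and 1 the other way, among them 3 DEGs. BBC3, which encodes the proapoptotic protein PUMA, had a change of 0.48 ± 0.07 (adjusted p = 0.0213), under 1.5-fold. The neighbouring-named noncoding transcript lnc-BBC3-1:1 rose by 1.95, with 2 of 3 DMSO arrays above background. HSPB9 and FREY1 were at least 1.5-fold lower in 3 of 3 pairs but did not pass (changes −0.8 and −0.92, adjusted p = 0.231 and 0.104).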
